A study of Mus musculus with 47 samples.

Results

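The gonadal fat pad is a visceral white fat depot that stores triglyceride and releases hormones into the blood. The results below ask in which genes the diet difference of males was not the same in NZO/HlLtJ and in CAST/EiJ mice. NZO/HlLtJ is an inbred, polygenic model of obesity, and CAST/EiJ is an inbred strain derived from wild mice. The 15 male libraries of these strains were taken from the 47 libraries of the series by the sex and strain in their labels, without use of any measured value. All groups were wild type with no treatment besides diet. Feeding began at 6 weeks of age and tissue was collected at 15 weeks. The diets are labelled 10% fat with fiber (the control) and 44% fat with fiber, and the protocol describes the second as high in sugar too. NZO/HlLtJ males gave 4 libraries on 10% fat and 4 on 44% fat. CAST/EiJ males gave 3 libraries on 10% fat and 4 on 44% fat. The other libraries, from females of both strains and from C57BL/6J mice, entered the same fit and shared its estimate of the spread.

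White fat makes fatty acids from sugar, takes them up from the blood, and releases them again between meals. Its cells also secrete adipokines such as adiponectin, leptin and chemerin, and its stroma holds progenitors, vessels, immune cells and a mesothelial surface layer. A diet by strain interaction is a difference of differences: the change from 10% to 44% fat in NZO/HlLtJ minus the change from 10% to 44% fat in CAST/EiJ, on the log2 scale. A positive interaction therefore arises from a larger rise in NZO/HlLtJ, a larger fall in CAST/EiJ, or both.

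The 15 libraries held 31.8 to 56.0 M counts each. Levels are given as CPM (a gene's count scaled to a fixed library total), which are comparable for 1 gene between libraries of 1 strain and are not corrected for gene length. How evenly reads of the 2 strains aligned was not tested, and levels set side by side between strains carry that limit. Summed CPM of 24 adipocyte genes was 42030 to 53820 in the NZO/HlLtJ libraries and 76420 to 89480 in the CAST/EiJ libraries, and every one of the 15 held adipocyte genes at high level. Of 22376 genes, 18769 passed the filter on low counts and were tested with edgeR, and a gene was called at a Benjamini-Hochberg adjusted p below 0.05. Nothing in the labels ties the libraries to separate animals, and p values measure the spread between these libraries, which may be technical. Replicate numbers are not in the labels and were assigned here in the order of the sample numbers within each group. Sample numbers fall in 3 ID ranges. In NZO/HlLtJ males the 77 range held 2 libraries of each diet, the 88 range held 2 on 10% fat and the 81 range held 2 on 44% fat, so outside the 77 range diet and ID range cannot be told apart in that strain. In CAST/EiJ males all 3 ranges held both diets, but the 77 range held only 1 library of each. Values from the 77 range therefore compare single libraries in that strain. Set beside values from outside it, they are not 2 replications.

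Replicate 3 of CAST/EiJ males on 10% fat stood apart. In it 95 genes were at 1 CPM or more and at least 4 times the level of each of the other 14 libraries. They included Rnase10, which encodes a secreted protein known from the epididymis, with 550 CPM there and at most 1.87 CPM in the other 14 libraries. Defb42, a beta-defensin of the epididymis, was at 73.2 CPM there and at most 0.926 CPM elsewhere. Adgrg2, a receptor of the efferent ducts and epididymis, was at 385 CPM there against 87.1 and 74.1 CPM in the other CAST/EiJ libraries on 10% fat. The epididymis lies against this fat pad. Of a list of 13 epididymis and testis genes only 2 (Spink2 and Star) could be tested, with a summed level of 1.40 to 1.72 CPM in all 3 libraries of this group. The rest of the list could not be tested, so it is no measure of epididymis in the library. The part of replicate 3 in the results was not tested beyond leaving it out. Many results are given with and without it, but some diet differences in CAST/EiJ males and some interactions are given only with it. Of the 388 genes called for diet in CAST/EiJ males with all libraries, 89 were still called without it. In replicate 3 of NZO/HlLtJ males on 44% fat 51 genes stood apart by the same measure. Its B and plasma cell genes summed to 1755 CPM, against 184 to 331 CPM in the rest of its group and 353 to 721 CPM in NZO/HlLtJ on 10% fat.

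The interaction was called for 53 genes, 0.282% of those tested. It was positive for 32 (0.17%) and negative for 21 (0.112%), and 34 of the 53 passed 2-fold. At an unadjusted p below 0.05 there were 2036 genes (10.8%). Of the 53 genes 51 were protein-coding, and 46 had diet differences of opposite sign in the strains. The diet difference was larger in CAST/EiJ for 38 of them. Taken by strain, 388 genes were called for diet in CAST/EiJ males (2.07%), with 159 higher (0.847%) and 229 lower (1.22%) on 44% fat. In NZO/HlLtJ males 218 were called (1.16%), with 147 higher (0.783%) and 71 lower (0.378%). Without replicate 4 of NZO/HlLtJ on 44% fat 15 were called in that strain, all higher. No fall in NZO/HlLtJ males named below was called in that fit. Without replicate 3 of CAST/EiJ on 10% fat the order turned, with 112 called in CAST/EiJ (0.587%) and 259 in NZO/HlLtJ (1.36%). Among the 53 genes, 35 were called in CAST/EiJ and not in NZO/HlLtJ, 11 the reverse, 2 in both (Anxa8 and Oxct1) and 5 in neither. Of the 35, 15 were genes at least 4 times higher in replicate 3 of CAST/EiJ on 10% fat than in both other replicates, and 20 were not. The CPM of the diet groups did not overlap in CAST/EiJ for 31 of the 53 genes (10.3% of all genes tested), in NZO/HlLtJ for 20 (7.28%), and in both with opposite order for 11 (0.17%). These counts describe genes chosen by the same contrast and test nothing further.

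**Figure D1:**
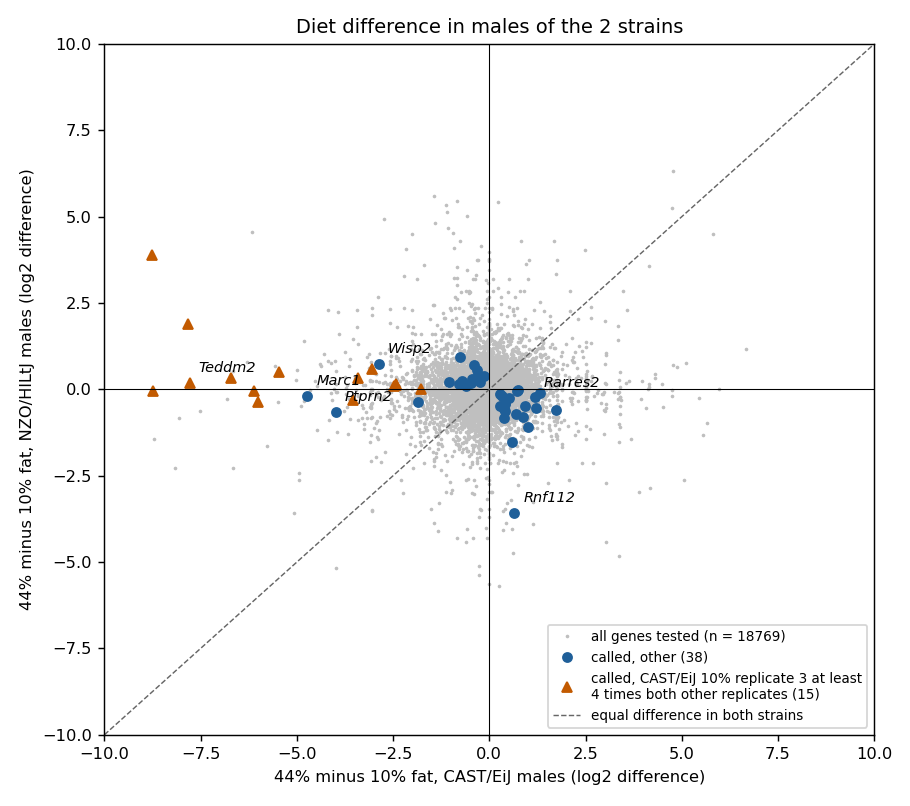
Each point is a gene, with its log2 difference between 44% and 10% fat in CAST/EiJ males on the horizontal axis and in NZO/HlLtJ males on the vertical axis. The 53 called genes are enlarged, 15 of them as triangles where replicate 3 of CAST/EiJ males on 10% fat was at least 4 times both other replicates, and most lie away from the dashed line of equal differences. Of all genes tested, 1 lies outside the axes.

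Leaving out that CAST/EiJ library split the 53 genes. For 15 of the 32 positive genes its level was at least 4 times that of both other libraries of its group, and without it their interaction fell to between 0.0526 and 0.517 of its size. None of these 15 was still called (adjusted p from 0.473 to 0.957). Among them were Slco4c1, Klrb1a, Teddm2, Ly6g5b, Hs3st3a1, Gcnt4, Fetub, Ddit4l, St8sia6, Emid1, Ptpn22, Klrb1c, Runx2 and Ap1s2. Teddm2 shows the pattern, with 1.24, 0.701 and 539 CPM in the 3 CAST/EiJ libraries on 10% fat and 0.377 to 1.39 CPM in the other 12. For Runx2, the transcription factor of bone formation, these 3 libraries were at 1.22, 0.826 and 11.5 CPM, and the 4 on 44% fat were between 0.643 and 0.985 CPM.

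The other 38 genes kept 0.672 to 1.12 of their interaction without the library. Of these, 8 were still called, and the largest adjusted p among the 38 was 0.312. In that fit 10 genes were called in all (0.0524%), 8 of the 53 and also Als2cl and Fam84a. The diet difference was called for 112 genes in CAST/EiJ males without it (0.587%). Als2cl, a Rab5 exchange factor, was at 167, 78.7 and 59.6 CPM in CAST/EiJ on 10% fat and at 42.3 to 57.2 CPM on 44% fat. Its interaction was 1.26 (adjusted p = 0.0504) with all libraries and 1.53 (adjusted p = 0.0166) without the library. For Fam84a the interaction was -0.56 (adjusted p = 0.832) with all libraries and -2.89 (adjusted p = 0.00858) without it, since the library held 18.9 CPM and the others of its group 1.72 and 1.13 CPM.

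**Figure D2:**
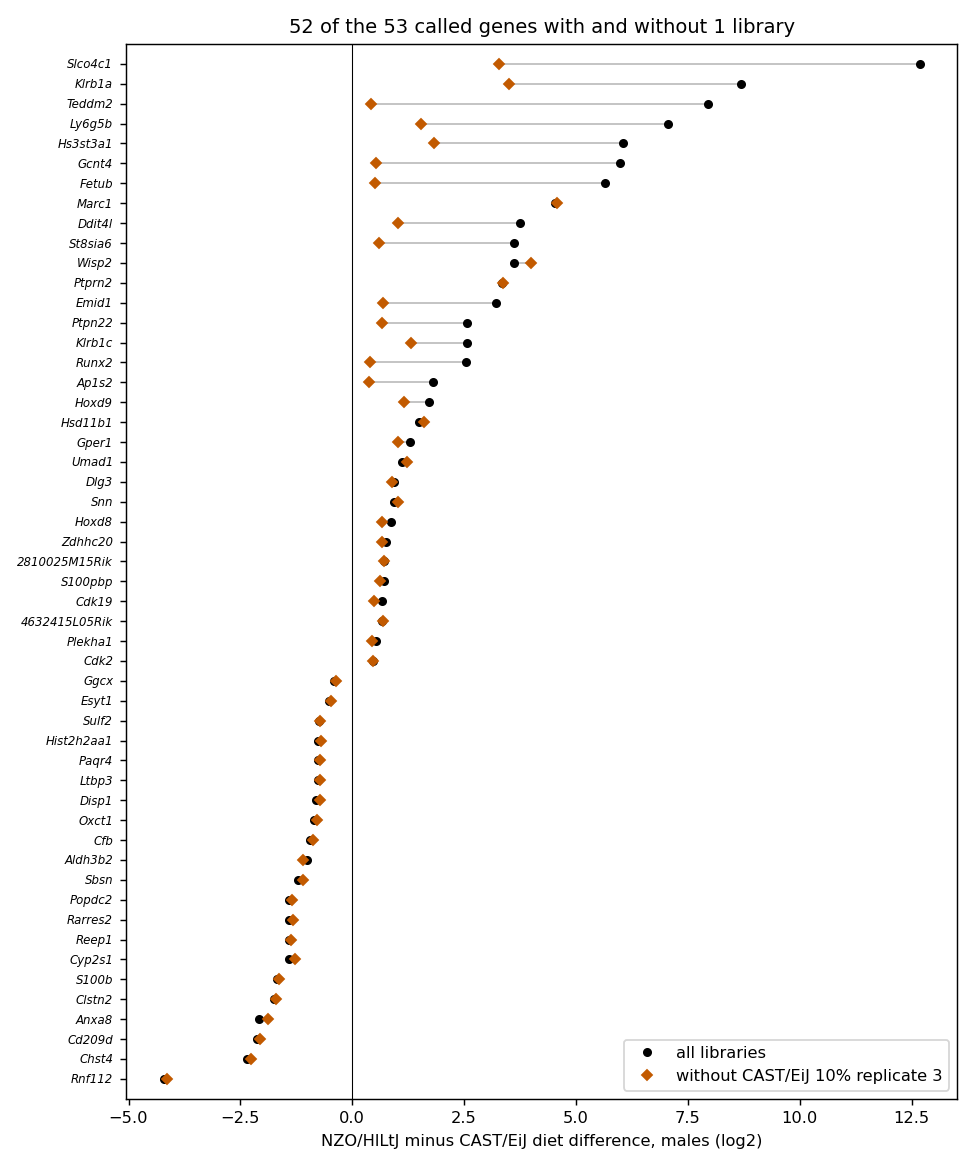
Each row is 1 of 52 called genes, with its interaction (log2, NZO/HlLtJ minus CAST/EiJ) from all libraries as a circle and from the fit without replicate 3 of CAST/EiJ males on 10% fat as a diamond. The genes named above as high in that library move towards 0, while the 2 marks lie closer together for the other 38, with Hoxd9 and Wisp2 among the widest apart.

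The contrast that chose these genes took no female values, but female libraries shared its filter and its estimate of the spread. The interaction in females of the same strains is therefore not a fully independent reading. Of the 38 genes, 34 had the same sign in females and 20 were called there with that sign. Of all genes tested 7.2% were called positive and 6.65% negative in females (13.9% in either direction). The share of all genes with the same sign in both sexes is not given here. Of the 15 genes high in the replicate 3 library, 10 had the same sign in females and 1 (Fetub) was called. For the 21 negative genes the sign in females was the same for all 21, and 14 were called (6.65% of all genes tested were called negative in females).

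Marc1 had the largest positive interaction among the genes called in all 15 fits that left out a male library. Marc1 (ENSMUSG00000026621, chromosome 1, 184786767 to 184811313, GRCm38) encodes an amidoxime-reducing enzyme of the outer mitochondrial membrane. In CAST/EiJ its level was 58.2, 10.1 and 30.1 CPM on 10% fat and 0.521, 1.36, 1.23 and 1.85 CPM on 44% fat. In NZO/HlLtJ it was 76.4, 91.0, 57.8 and 83.3 CPM on 10% fat and 50.4, 73.4, 83.8 and 60.8 CPM on 44% fat. The diet groups did not overlap in CAST/EiJ and overlapped in NZO/HlLtJ, and every CAST/EiJ library on 44% fat was far below all other libraries. Marc1 fell by 4.72 (SE 0.53) on the log2 scale in CAST/EiJ (26.4-fold, adjusted p = 3.77e-07), with a difference of -0.20 (SE 0.40, adjusted p = 0.858) in NZO/HlLtJ. The interaction was 4.52 (95% interval 3.18 to 5.86, adjusted p = 3.31e-04). Fits without a library gave 3.83 to 4.95, with adjusted p up to 0.00204. The 77 range alone, with 1 CAST/EiJ library of each diet, gave 6.37 against 3.80 outside it (adjusted p = 0.158). In CAST/EiJ females Marc1 was at 95.8 to 143 CPM on 10% fat and 2.40 to 8.23 CPM on 44% fat, and the interaction of females was 4.33 (SE 0.59, adjusted p = 5.15e-06).

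The stretch upstream of Marc1 is shown because this gene had the largest interaction of those called in each of these 15 fits. It is the 250 bases before the gene's start on the minus strand in RefSeq (GRCm38.p6, chr1:184811301-184811550), from the reference strain and not from NZO/HlLtJ or CAST/EiJ. Capitals mark AGGTCA, the letters of a nuclear receptor binding site.
Marc1: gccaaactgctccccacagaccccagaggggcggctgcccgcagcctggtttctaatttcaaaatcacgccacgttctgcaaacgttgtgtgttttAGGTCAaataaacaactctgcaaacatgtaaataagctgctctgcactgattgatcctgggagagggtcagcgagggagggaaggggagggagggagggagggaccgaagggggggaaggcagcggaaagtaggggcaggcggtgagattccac
Both strands were searched for AGGTCA (a nuclear receptor site), for CACGTG (an E-box), for CCAAT (bound by NF-Y) and for TATAAA (bound by the general transcription machinery). AGGTCA occurs in 14.0% of 32851 RefSeq upstream stretches of this length, CACGTG in 6.02%, CCAAT in 33.9% and TATAAA in 12.4%, and a match of letters is no measure of binding.

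Rarres2 had the smallest p value. Rarres2 (ENSMUSG00000009281, chromosome 6, 48569696 to 48572789, GRCm38) encodes chemerin, an adipokine that attracts immune cells and acts on fat cells. CAST/EiJ libraries held 83.6, 92.8 and 72.2 CPM on 10% fat and 154, 201, 178 and 221 CPM on 44% fat. NZO/HlLtJ libraries held 370, 352, 370 and 428 CPM on 10% fat and 300, 311, 342 and 343 CPM on 44% fat. The diet groups did not overlap in either strain and lay in opposite order, and all NZO/HlLtJ libraries were above all CAST/EiJ libraries. Rarres2 rose by 1.19 (SE 0.13) on the log2 scale in CAST/EiJ (2.27-fold, adjusted p = 3.77e-07), and the difference in NZO/HlLtJ was -0.23 (SE 0.12, adjusted p = 0.318). The interaction was -1.42 (95% interval -1.77 to -1.06, adjusted p = 1.07e-05), with -1.11 in the 77 range alone and -1.50 outside it (adjusted p = 0.0175). Fits without a library gave -1.50 to -1.33, with adjusted p up to 3.33e-04.

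Oxct1 and Anxa8 were called in both strains, in opposite directions. Neither fall in NZO/HlLtJ was called without replicate 4 on 44% fat, a fit in which 0 genes were called lower in that strain. Oxct1 (ENSMUSG00000022186, chromosome 15, 4026383 to 4155344, GRCm38) encodes the mitochondrial transferase that lets cells burn ketone bodies. The NZO/HlLtJ levels were 310, 310, 268 and 282 CPM on 10% fat and 169, 246, 246 and 208 CPM on 44% fat. The CAST/EiJ levels were 212, 230 and 190 CPM on 10% fat and 275, 292, 307 and 252 CPM on 44% fat. Neither pair of diet groups overlapped. Oxct1 fell by 0.43 (SE 0.10) on the log2 scale in NZO/HlLtJ (adjusted p = 0.0225) and rose by 0.42 (SE 0.11) in CAST/EiJ (adjusted p = 0.0256). Its interaction was -0.85 (95% interval -1.14 to -0.56, adjusted p = 0.00268), with -0.94 in the 77 range and -0.71 outside it. In females the interaction was -0.83 (SE 0.14, adjusted p = 9.32e-05).

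Anxa8 (ENSMUSG00000021950, chromosome 14, 34085981 to 34100571, GRCm38) encodes an annexin, a protein that binds membranes in the presence of calcium. In NZO/HlLtJ it was at 8.69, 9.002, 11.1 and 10.98 CPM on 10% fat and 2.44, 5.03, 6.00 and 5.22 CPM on 44% fat. In CAST/EiJ it was at 10.9, 14.7 and 7.63 CPM on 10% fat and 14.2, 26.8, 19.1 and 28.7 CPM on 44% fat. The diet groups overlapped in CAST/EiJ and not in NZO/HlLtJ. Anxa8 fell by 1.08 (SE 0.24) on the log2 scale in NZO/HlLtJ (adjusted p = 0.0225) and rose by 1.00 (SE 0.26) in CAST/EiJ (adjusted p = 0.0277). Without the replicate 3 library described above its CAST/EiJ difference was 0.80 (adjusted p = 0.198), and that of Oxct1 was 0.35 (adjusted p = 0.168), while both interactions were still called (adjusted p = 0.0286 for each). The interaction of Anxa8 was -2.09 (95% interval -2.81 to -1.37, adjusted p = 0.00268), with -1.60 in the 77 range and -2.14 outside it.

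Snn, Zdhhc20 and the processed pseudogene 2810025M15Rik were the other genes called in every fit that left out a library. Snn (ENSMUSG00000037972, chromosome 16, 11066298 to 11074983, GRCm38) encodes stannin, a small membrane protein known for its part in the toxicity of organic tin. Its level in CAST/EiJ was 164, 139 and 122 CPM on 10% fat and 98.0, 80.8, 93.4 and 76.3 CPM on 44% fat. In NZO/HlLtJ it was 33.0, 42.8, 33.6 and 31.6 CPM on 10% fat and 48.2, 35.1, 41.3 and 40.7 CPM on 44% fat. The diet groups were apart in CAST/EiJ and overlapped in NZO/HlLtJ. Snn fell by 0.70 (SE 0.13) on the log2 scale in CAST/EiJ (adjusted p = 0.00119), and its interaction was 0.93 (95% interval 0.58 to 1.28, adjusted p = 0.00879), with 0.89 in the 77 range and 0.97 outside it.

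The stretch upstream of Snn is shown because it held 2 of the 4 motifs searched. It covers the 250 bases before the start on the plus strand (RefSeq, GRCm38.p6, chr16:11066048-11066297), and capitals mark CCAAT and CACGTG, the letters of a CCAAT box and an E-box.
Snn: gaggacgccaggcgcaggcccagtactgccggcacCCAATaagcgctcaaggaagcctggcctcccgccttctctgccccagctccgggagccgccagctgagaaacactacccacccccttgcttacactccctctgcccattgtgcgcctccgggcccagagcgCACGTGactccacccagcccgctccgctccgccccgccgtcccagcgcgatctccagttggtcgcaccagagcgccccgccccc
The same stretches of Oxct1, Anxa8 and Zdhhc20 held none of the 4 motifs, which says only that these letters are not in those windows.

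Zdhhc20 (ENSMUSG00000021969, chromosome 14, 57832702 to 57890262, GRCm38) encodes an enzyme that attaches palmitate to proteins. NZO/HlLtJ libraries held 31.5, 32.1, 33.0 and 32.6 CPM on 10% fat and 36.3, 42.4, 37.3 and 44.3 CPM on 44% fat. CAST/EiJ libraries held 24.8, 22.4 and 27.7 CPM on 10% fat and 17.99, 17.9, 19.7 and 18.1 CPM on 44% fat. Neither pair of diet groups overlapped, and the order was opposite in the strains. Zdhhc20 fell by 0.44 (SE 0.09) on the log2 scale in CAST/EiJ (adjusted p = 0.00587, but 0.102 without the replicate 3 library), with a difference of 0.31 (SE 0.09, adjusted p = 0.0581) in NZO/HlLtJ. The interaction was 0.75 (95% interval 0.50 to 1.01, adjusted p = 0.00268), with 0.79 in the 77 range and 0.75 outside it. For 2810025M15Rik, whose reads may be shared with its parent gene, the interaction was 0.71 (adjusted p = 0.0108), with 10.4 to 10.8 CPM in CAST/EiJ on 10% fat and 6.01 to 7.85 CPM on 44% fat. Scaled by library totals this gene was not called (adjusted p = 0.0542).

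**Figure D3:**
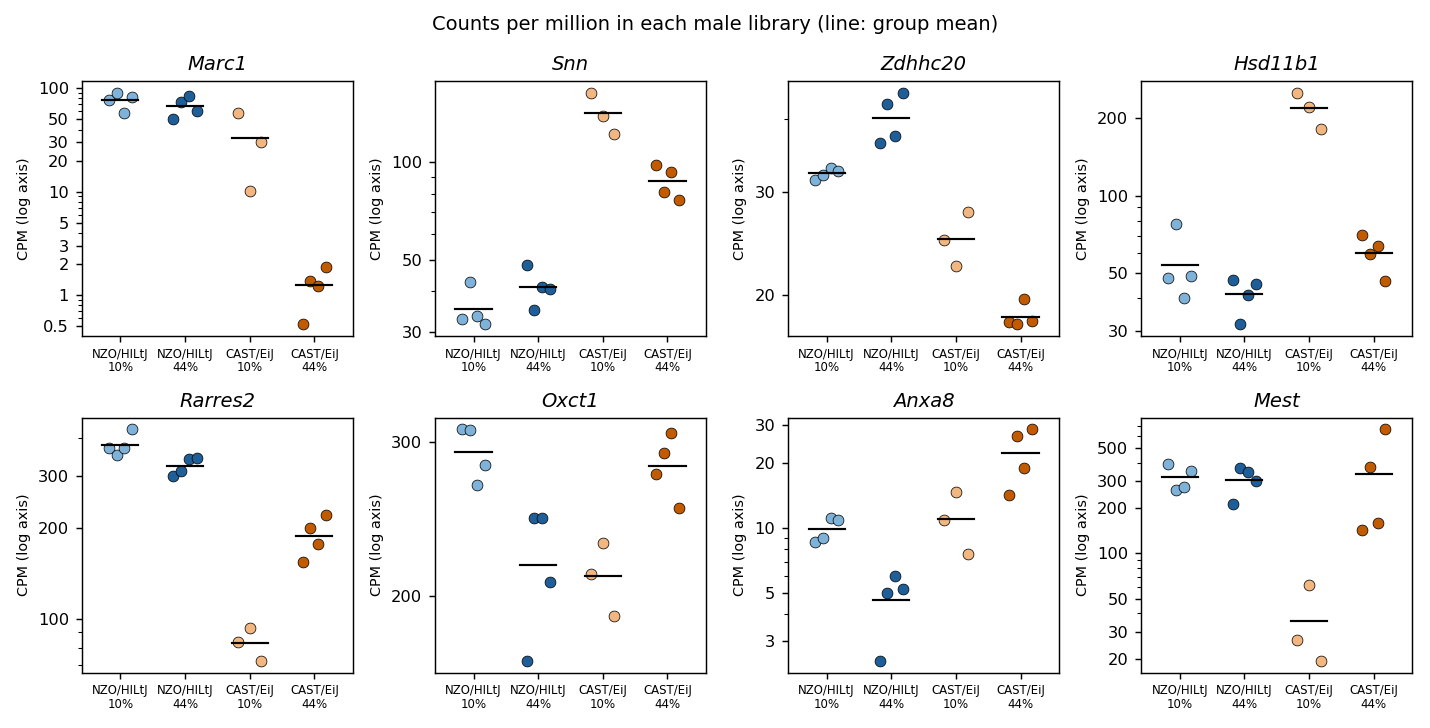
Each panel gives a gene's CPM (log axis) in each of the 15 male libraries by strain and diet, with a line at the group mean. Marc1, Snn, Zdhhc20 and Hsd11b1 had positive interactions, Rarres2, Oxct1 and Anxa8 negative ones, and Mest (adjusted p = 0.0833) was not called.

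Among other metabolic enzymes, Hsd11b1 and Cyp2s1 differed between diets in CAST/EiJ. Hsd11b1 (ENSMUSG00000016194, chromosome 1, 193221634 to 193264075, GRCm38) encodes the enzyme that regenerates active glucocorticoid inside cells. The CAST/EiJ levels were 251, 221 and 182 CPM on 10% fat and 70.4, 59.2, 63.5 and 46.5 CPM on 44% fat. The NZO/HlLtJ levels were 47.9, 77.7, 40.0 and 48.9 CPM on 10% fat and 47.3, 31.7, 41.1 and 45.5 CPM on 44% fat. On 44% fat the CAST/EiJ level came down to the range of NZO/HlLtJ on 10% fat. Hsd11b1 fell by 1.86 (SE 0.24) on the log2 scale in CAST/EiJ (3.64-fold, adjusted p = 7.59e-06), and the interaction was 1.49 (95% interval 0.83 to 2.15, adjusted p = 0.0316). The interaction stayed between 1.37 and 1.72 over the 15 fits without a library. Its call was lost in 8 of them, with adjusted p up to 0.102. The interaction was 1.17 in the 77 range and 1.80 outside it. The fall in CAST/EiJ was called without the replicate 3 library (-1.97, adjusted p = 1.97e-05). Of 12 genes on a glucocorticoid response list, Hsd11b1 was the 1 called, and the list's median interaction was 0.28 (0.12 without the replicate 3 library) beside 0.01 for all genes.

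Cyp2s1, a cytochrome P450, was at 8.16, 8.96 and 6.02 CPM in CAST/EiJ on 10% fat and 15.8, 17.9, 18.9 and 23.8 CPM on 44% fat, against 2.24 to 4.02 CPM in all NZO/HlLtJ libraries. Its diet groups were apart in CAST/EiJ and overlapped in NZO/HlLtJ. Cyp2s1 rose by 1.31 (SE 0.22) on the log2 scale in CAST/EiJ (adjusted p = 5.55e-04), with an interaction of -1.42 (95% interval -2.03 to -0.82, adjusted p = 0.0193). Aldh3b2, an aldehyde dehydrogenase of lipid droplets, moved in the other strain. It was at 23.3 to 33.4 CPM in NZO/HlLtJ on 10% fat and 16.3 to 19.4 CPM on 44% fat, a fall of 0.62 on the log2 scale (adjusted p = 0.0489), and its interaction was -1.02 (95% interval -1.50 to -0.54, adjusted p = 0.0458). Chst4, a sulfotransferase that modifies sugar chains, rose by 1.74 (SE 0.32) on the log2 scale in CAST/EiJ (adjusted p = 0.00155), from 2.81, 4.43 and 2.95 CPM to 9.65, 12.4, 9.59 and 13.8 CPM, with an interaction of -2.35 (adjusted p = 0.0108). Without the replicate 3 library the adjusted p of these 3 interactions was 0.127, 0.0872 and 0.0626, and with ID range as a term that of Aldh3b2 was 0.0537.

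Wisp2, also known as Ccn5 and secreted by fat progenitors as a Wnt pathway signal, was at 17.5, 2.13 and 3.07 CPM in CAST/EiJ on 10% fat and 0.898, 0.848, 1.58 and 0.837 CPM on 44% fat. In NZO/HlLtJ it was at 17.6, 9.34, 24.6 and 26.2 CPM on 10% fat and 21.9, 31.0, 28.5 and 48.4 CPM on 44% fat. Wisp2 fell by 2.88 (SE 0.64) on the log2 scale in CAST/EiJ (adjusted p = 0.00863), and its interaction was 3.62 (95% interval 1.97 to 5.27, adjusted p = 0.0366). In CAST/EiJ on 10% fat replicate 1 was far above the other libraries, and the diet groups did not overlap. The interaction was lost in 7 of 15 fits, going down to 2.08 with adjusted p up to 0.222, while in females it was 4.14 (SE 0.77, adjusted p = 3.25e-04).

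Cfb, factor B of the alternative complement pathway, was at 286, 217, 257 and 305 CPM in NZO/HlLtJ on 10% fat and 150, 200, 214 and 158 CPM on 44% fat. It was at 140, 168 and 134 CPM in CAST/EiJ on 10% fat and 181, 188, 179 and 217 CPM on 44% fat. The diet groups did not overlap in either strain and were in opposite order. Cfb fell by 0.56 (SE 0.14) on the log2 scale in NZO/HlLtJ (adjusted p = 0.0346), and the interaction was -0.94 (95% interval -1.35 to -0.53, adjusted p = 0.0249). It was lost in 6 of 15 fits, with adjusted p up to 0.128. Sulf2, an extracellular sulfatase that edits heparan sulfate, and Ltbp3, which binds latent TGF-beta, rose in CAST/EiJ by 0.71 and 0.52 on the log2 scale (adjusted p = 1.19e-04 and 0.00503). Their interactions were -0.75 and -0.77 (adjusted p = 0.00879 for both), and without the replicate 3 library they were -0.72 and -0.72 (adjusted p = 0.0599 and 0.0626). Sulf2 had an interaction of -1.48 in females (adjusted p = 5.22e-09).

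S100b and Sbsn had diet groups in opposite order in the strains. S100b encodes a calcium-binding protein that fat cells as well as glia make. It was at 8.04 to 13.9 CPM in NZO/HlLtJ on 10% fat and 4.51 to 7.83 CPM on 44% fat, against 97.0 to 110 CPM and 122 to 289 CPM in CAST/EiJ. Its interaction was -1.69 (95% interval -2.45 to -0.92, adjusted p = 0.0345), though the diet difference was called in neither strain (adjusted p = 0.109 and 0.0773). Sbsn, the secreted protein suprabasin, fell by 0.82 (SE 0.18) on the log2 scale in NZO/HlLtJ (adjusted p = 0.0225), with an interaction of -1.21 (adjusted p = 0.0345). Each of these 2 interactions was lost in 7 of 15 fits, with adjusted p up to 0.132 and 0.174, and neither was called with ID range as a term (adjusted p = 0.0509 and 0.0502).

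Membrane and cell-surface genes with negative interactions were Cd209d, Clstn2, Reep1, Popdc2, Esyt1, Disp1 and Paqr4. Cd209d, a C-type lectin of a multigene family among whose members reads may be split, was at 4.67, 6.01, 2.78 and 3.41 CPM in NZO/HlLtJ on 10% fat and 2.21, 1.36, 1.44 and 0.888 CPM on 44% fat. It fell by 1.52 (SE 0.30) on the log2 scale in NZO/HlLtJ (adjusted p = 0.0147), and its interaction was -2.12 (95% interval -2.97 to -1.27, adjusted p = 0.0113, and 0.0626 without the replicate 3 library). In females it was -2.24 (adjusted p = 1.47e-04). Clstn2, a calsyntenin of the cell surface, rose by 1.204 (SE 0.29) in CAST/EiJ (adjusted p = 0.0198), although its diet groups overlapped there, with 1.86 to 6.61 CPM on 10% fat and 4.87 to 13.4 CPM on 44% fat. Its interaction of -1.74 (adjusted p = 0.0345) was -3.56 in the 77 range, with 1 CAST/EiJ library of each diet, and -0.93 outside it (adjusted p = 0.570).

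Reep1, which shapes the endoplasmic reticulum, rose by 0.93 (SE 0.24) on the log2 scale in CAST/EiJ (adjusted p = 0.0269), with an interaction of -1.42 (adjusted p = 0.0345). Popdc2, a cyclic AMP binding membrane protein of muscle, had an interaction of -1.41 (adjusted p = 0.0193) with a call in neither strain, and in females of -2.08 (adjusted p = 3.93e-06). Esyt1, a tether between the endoplasmic reticulum and the cell membrane, had an interaction of -0.52 (adjusted p = 0.0283), Disp1, which releases Hedgehog ligands, of -0.81 (adjusted p = 0.0458), and Paqr4, of the progestin and adipoQ receptor family, of -0.76 (adjusted p = 0.0366). Without the replicate 3 library the adjusted p of these 5 was between 0.0993 and 0.197, and that of Clstn2 was 0.129. With ID range as a term it was 0.0610 for Disp1 and 0.0587 for Paqr4.

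Gper1, a membrane estrogen receptor, fell by 1.06 (SE 0.20) on the log2 scale in CAST/EiJ (adjusted p = 0.00170), from 3.14, 3.70 and 5.43 CPM to 1.71, 2.19, 1.81 and 2.15 CPM, with an interaction of 1.28 (adjusted p = 0.0193). Dlg3, a scaffold protein on the X chromosome, fell by 0.78 (SE 0.16) there (adjusted p = 0.00526), from 10.2 to 12.1 CPM down to 6.07 to 7.20 CPM, with an interaction of 0.93 (adjusted p = 0.0480). Umad1 (ENSMUSG00000107705, a symbol that another entry in the file shares) rose in NZO/HlLtJ by 0.72 (SE 0.18, adjusted p = 0.0370), with an interaction of 1.11 (adjusted p = 0.0480). Without the replicate 3 library these 3 interactions had adjusted p of 0.175, 0.182 and 0.0626, and with ID range as a term that of Umad1 was 0.0587. Their calls were also lost without other libraries. The adjusted p was 0.0625 for Gper1 and 0.1275 for Umad1 without replicate 4 of NZO/HlLtJ on 44% fat. For Dlg3 it was 0.119 without replicate 4 of CAST/EiJ on 44% fat. The calls of Dlg3 and Umad1 were lost in most of the 15 fits without a library, among them each fit without a CAST/EiJ library on 44% fat. That of Gper1 was lost only without the replicate 3 library and without replicate 4 of NZO/HlLtJ on 44% fat.

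Hoxd9 and Hoxd8, homeobox genes that record position along the body axis, rose in NZO/HlLtJ by 0.93 (SE 0.25) and 0.56 (SE 0.13) on the log2 scale (adjusted p = 0.0475 and 0.0243). Their interactions of 1.71 and 0.87 (adjusted p = 0.0171 and 0.0205) were 1.15 and 0.67 without the replicate 3 library (adjusted p = 0.206 and 0.185), which held 9.15 and 46.5 CPM of them against at most 4.37 and 32.3 CPM in the other CAST/EiJ males.

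Cdk2, a kinase of the cell cycle, had an interaction of 0.46 (adjusted p = 0.0366) and Cdk19, a kinase of the Mediator complex, of 0.66 (adjusted p = 0.0461), with a call in neither strain and an adjusted p of 0.0539 for Cdk19 with ID range as a term. Plekha1, a phosphoinositide-binding adaptor, rose by 0.38 (SE 0.07) in NZO/HlLtJ (adjusted p = 0.0112), with an interaction of 0.53 (adjusted p = 0.00885), and S100pbp rose by 0.42 there (adjusted p = 0.0207), with an interaction of 0.70 (adjusted p = 0.00879). The histone gene Hist2h2aa1, which has near-identical copies, had an interaction of -0.76 (adjusted p = 0.0462). Without the replicate 3 library the adjusted p was 0.0995 for Cdk2, 0.312 for Cdk19, 0.0993 for Plekha1, 0.0626 for S100pbp and 0.185 for Hist2h2aa1.

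Ptprn2 and Rnf112 were near the limit of detection in some groups. Ptprn2, a protein of secretory granules, was at 1.86, 1.03 and 1.40 CPM in CAST/EiJ on 10% fat and 0.0579 to 0.129 CPM on 44% fat, and 0.0190 to 0.145 CPM in all NZO/HlLtJ libraries. Rnf112, a ring finger protein, was at 0.133 to 0.228 CPM in NZO/HlLtJ on 10% fat and at 0, 0, 0.0244 and 0.0269 CPM on 44% fat. The diet groups were apart in each case, but the lowest of these levels are worth about 1 count or none, and fitted folds are not given for them.

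**Figure D4:**
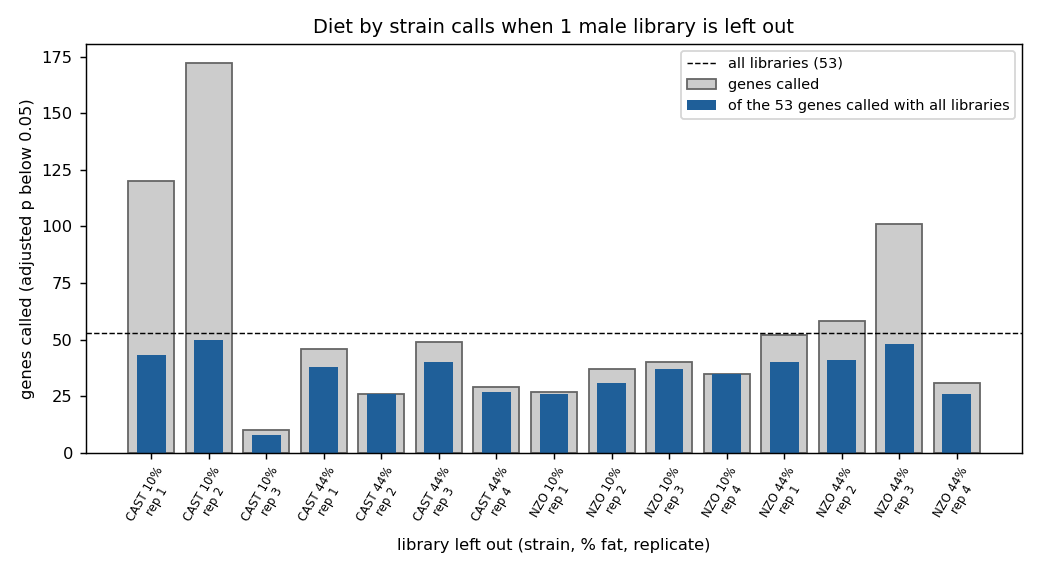
Bars give the number of genes called for the interaction when the library named on the horizontal axis was left out, with the share that was among the 53 in blue. The count ran from 10 without replicate 3 of CAST/EiJ males on 10% fat to 172 without replicate 2 of that group.

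The count of calls moved with the libraries left in. There were 120 calls without replicate 1 of CAST/EiJ on 10% fat, 172 without replicate 2 and 10 without replicate 3. In NZO/HlLtJ, 101 genes were called without replicate 3 on 44% fat. Of the 53 genes 7 were called in all 15 such fits (Rarres2, Marc1, Anxa8, Oxct1, Snn, Zdhhc20 and 2810025M15Rik), and 13 were lost in the fit without CAST/EiJ replicate 3 on 10% fat and in no other. The remaining 33 were lost in 2 or more of these fits. Each of these fits still shared its estimate of the spread with the other libraries of the series. In the edgeR fit of the 15 male libraries alone, 2 of the 53 were still called. They were Rarres2 (adjusted p = 0.00874) and Marc1 (adjusted p = 0.0126). The others of the 7 were not called there, with Anxa8 at an adjusted p of 0.134. That fit holds fewer libraries. Within the 77 ID range 51 of the 53 genes had the same sign, Slco4c1 had the opposite sign and 1 was not tested, and outside that range all 53 had the same sign. The 53 were chosen from these same libraries, so equal signs in parts of them are no further test. With ID range as a term 12 of the 53 were not called, at adjusted p of 0.0502 to 0.0658.

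Some genes that make fatty acids from sugar were lower on 44% fat in both strains, and no interaction was called among them. De novo lipogenesis turns carbons from glucose and fructose into fatty acids through Acaca, Fasn and elongases, under the control of Srebf1 and Mlxipl. Of 24 genes of this pathway none was called for the interaction, 2 passed an unadjusted p of 0.05, and the median interaction was 0.08. This median was 0.49 without replicate 2 of NZO/HlLtJ on 10% fat and 0.35 without replicate 3 of CAST/EiJ on 10% fat. In NZO/HlLtJ 4 were called lower on 44% fat (median -0.58) and in CAST/EiJ 5 (median -0.54), beside medians of -0.01 and -0.03 for all genes. Without replicate 2 of NZO/HlLtJ on 10% fat, 0 of 24 were called lower in that strain and the median was -0.37.

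Fasn, the fatty acid synthase, was at 4927, 14390, 5108 and 4741 CPM in NZO/HlLtJ on 10% fat and 1971, 3895, 3928 and 2345 CPM on 44% fat. In CAST/EiJ it was at 36280, 20920 and 15560 CPM on 10% fat and 8864, 11570, 6541 and 12200 CPM on 44% fat. The diet groups did not overlap in either strain, and the differences were -1.26 (SE 0.37, adjusted p = 0.0756) and -1.31 (SE 0.39, adjusted p = 0.0669). The interaction was 0.04, with a 95% interval of -1.04 to 1.12 that leaves room for a 2-fold difference between strains. Without replicate 2 on 10% fat the Fasn difference in NZO/HlLtJ was -0.70 (adjusted p = 0.386) and the interaction 0.61 (adjusted p = 0.723). Without replicate 3 of NZO/HlLtJ on 44% fat that difference was -1.41 and was called (adjusted p = 0.0382). Acaca, acetyl-CoA carboxylase, had an interaction of 0.03 (95% interval -0.96 to 1.02), and of 0.60 without replicate 2 (adjusted p = 0.681).

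Elovl6, the elongase of palmitate, fell in both strains. It was at 69.5, 354, 92.4 and 73.7 CPM in NZO/HlLtJ on 10% fat and 16.8, 54.5, 52.1 and 28.7 CPM on 44% fat, a fall of 1.95 (SE 0.51) on the log2 scale (adjusted p = 0.0451, and 0.322 without replicate 2 on 10% fat). CAST/EiJ libraries held 297, 98.4 and 130 CPM on 10% fat and 17.1, 24.96, 14.4 and 34.6 CPM on 44% fat, a fall of 2.94 (SE 0.55, adjusted p = 0.00164). The interaction was 0.99 (95% interval -0.47 to 2.45), and 1.90 without replicate 2 (adjusted p = 0.283). Slc2a5, the fructose transporter, fell by 3.51 in NZO/HlLtJ (adjusted p = 0.0493) and by 3.06 in CAST/EiJ (adjusted p = 0.0277), with an interaction of -0.45 (95% interval -3.00 to 2.09). Without replicate 2 on 10% fat, which held 7.19 CPM against at most 0.784 CPM in its group, the NZO/HlLtJ difference was -1.81 (adjusted p = 0.404) and the interaction turned to 1.24 (adjusted p = 0.792).

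Scd1, the stearoyl-CoA desaturase, had no called change in either strain, with an interaction of 0.54 (95% interval -0.10 to 1.18). The difference in NZO/HlLtJ was 0.64 (adjusted p = 0.130). It was called without replicate 2 on 10% fat (0.99, adjusted p = 0.0412) and without replicate 3 on 44% fat (0.75, adjusted p = 0.0486). Thrsp, a lipogenic nuclear protein, fell by 1.94 (SE 0.45) in NZO/HlLtJ (adjusted p = 0.0275, and 0.261 without that library) and differed by -0.97 (SE 0.47, adjusted p = 0.334) in CAST/EiJ, with an interaction of -0.97 (95% interval -2.28 to 0.34) that was -0.02 without that library. Srebf1 had an interaction of -0.03 (95% interval -0.62 to 0.57).

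Of 12 markers of fat expansion 4 were called higher on 44% fat in CAST/EiJ (median 1.16), and none of these 4 was called without the replicate 3 library. In NZO/HlLtJ 2 were called higher, and the median of 0.41 was 0.03 without replicate 3 on 44% fat. For the interaction 0 were called, with a median of -0.61 that was -0.40 without the replicate 3 library of CAST/EiJ. Mest, an imprinted gene that marks enlarging fat cells, was at 26.4, 61.2 and 19.3 CPM in CAST/EiJ on 10% fat and 142, 376, 159 and 665 CPM on 44% fat. NZO/HlLtJ libraries held 391, 264, 277 and 351 CPM on 10% fat and 212, 368, 344 and 300 CPM on 44% fat. The CAST/EiJ groups were apart, and on 44% fat 2 of the 4 CAST/EiJ libraries were still below every NZO/HlLtJ library. Mest rose by 3.24 (SE 0.69) on the log2 scale in CAST/EiJ (adjusted p = 0.00587, and 0.0764 without the replicate 3 library), with a difference of -0.07 (SE 0.56) in NZO/HlLtJ. The interaction of -3.31 (95% interval -5.05 to -1.56) had an adjusted p of 0.0833 and was not called.

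Sfrp5, a secreted Wnt inhibitor of fat cells, rose by 2.21 (SE 0.62) in CAST/EiJ (adjusted p = 0.0467, and 0.182 without the replicate 3 library), with an interaction of -1.42 (95% interval -3.01 to 0.18). Nnat, an imprinted proteolipid gene, rose by 2.23 in CAST/EiJ (adjusted p = 0.0206, and 0.139 without that library). Zim1 rose in both strains, by 2.86 in NZO/HlLtJ (adjusted p = 0.0112) and 2.08 in CAST/EiJ (adjusted p = 0.0449, and 0.0534 without that library), and its neighbour Peg3 rose by 2.27 in NZO/HlLtJ (adjusted p = 0.0207, and 0.0695 without replicate 2 on 10% fat). Both are imprinted zinc finger genes. Lep, which encodes leptin, was at 1510 to 3684 CPM in NZO/HlLtJ and 108 to 1237 CPM in CAST/EiJ, with an interaction of -0.54 (95% interval -1.98 to 0.90) that ran from -0.91 to 0.07 in fits without a library.

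Adipocyte identity held few differences. Of its 24 genes none was called for the interaction, and the median was -0.14, with -0.08 without replicate 3 of NZO/HlLtJ on 44% fat. Adipoq, which encodes adiponectin, had an interaction of -0.17 (95% interval -0.53 to 0.19). Slc2a4, the insulin-responsive glucose transporter, had 0.08 (95% interval -0.51 to 0.67), and Irs1 and Irs2, the adaptors of the insulin receptor, had -0.71 (adjusted p = 0.261) and -0.48 (adjusted p = 0.709). Ucp1, the uncoupling protein of brown and beige fat, had -0.19 (95% interval -2.12 to 1.75). Intervals of this width do not show that the strains responded alike.

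Mesothelial genes had the lowest median interaction among lists with at least 7 genes tested. The mesothelium is the cell layer that covers the fat pad. Of 12 genes none was called for the interaction, but 7 were negative at an unadjusted p below 0.05, as were 835 of all genes tested (4.45%), and the median was -1.02 in males and -1.69 in females. In CAST/EiJ males Msln and Krt19 were called higher on 44% fat (log2 1.33 and 1.26, adjusted p = 0.0388 and 0.0314), and neither was called without the replicate 3 library (adjusted p = 0.204 and 0.141). Krt19, a keratin, was at 5.12, 9.31 and 6.51 CPM in CAST/EiJ on 10% fat and 11.6, 20.3, 15.2 and 19.4 CPM on 44% fat, groups that did not overlap. The summed level of the 12 genes was 148 to 223 CPM in CAST/EiJ on 10% fat and 278 to 371 CPM on 44% fat, and 39.0 to 105 CPM over the NZO/HlLtJ libraries. In bulk tissue fewer cells of a type and less RNA per cell cannot be told apart.

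Immune lists had 1 call between them. The 16 macrophage symbols, tested as 17 entries, had 0 called and a median interaction of -0.17, with -0.31 without replicate 2 of NZO/HlLtJ on 10% fat. Adgre1, the F4/80 antigen of macrophages, had -0.29 (95% interval -0.90 to 0.33), Itgax 0.50 (-0.53 to 1.54), Trem2 -0.25 (-1.35 to 0.86) and the chemokine gene Ccl2 -1.26 (-2.55 to 0.03). T and NK cell genes had a median of 0.91, with Klrb1c as the 1 call of 16. Klrb1c, an NK receptor of a multigene family, was at 1.64, 1.80 and 8.68 CPM in CAST/EiJ on 10% fat and 0.418 to 1.13 CPM on 44% fat, and its interaction went from 2.56 (adjusted p = 0.0271) to 1.32 (adjusted p = 0.473) without the replicate 3 library. B and plasma cell genes had a median diet difference of 1.16 in NZO/HlLtJ, which was -0.66 without replicate 3 on 44% fat. Their median interaction turned from 0.91 to -0.69 without that library, and 0 of 10 were called.

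Extracellular matrix genes, 27 in all, had 0 called and a median of -0.24, with -0.38 without replicate 3 of NZO/HlLtJ on 44% fat and -0.14 without replicate 3 of CAST/EiJ on 10% fat. Col1a1 and Col6a3, collagens of the fat stroma, had interactions of -0.11 (95% interval -0.82 to 0.59) and -0.51 (-1.29 to 0.27). Over all 30 lists 28 had no called gene and 2 had 1.

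**Figure D5:**
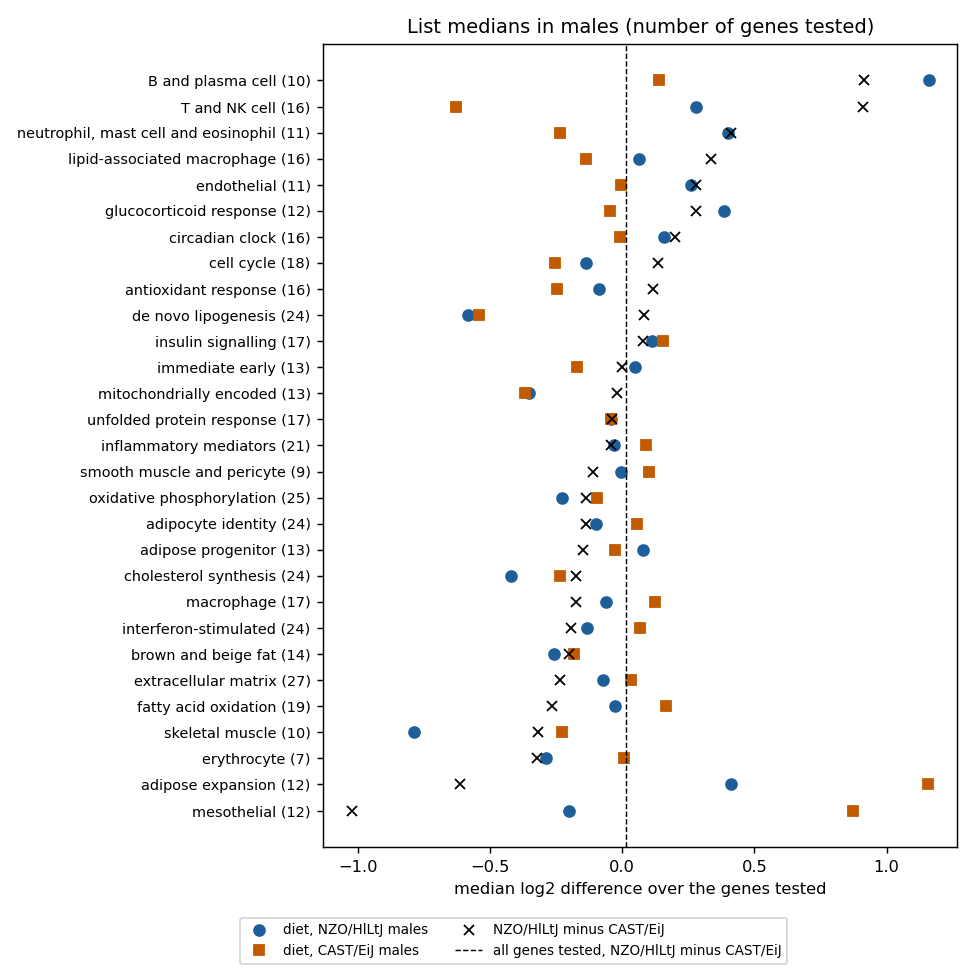
Each row is a gene list (genes tested in brackets), with the median log2 difference between diets in NZO/HlLtJ (circles) and CAST/EiJ males (squares) and the median interaction (crosses). Mesothelial and adipose expansion lists have the lowest interaction medians, -1.02 and -0.61, and the B and T cell lists the highest, 0.91 each, of which the B cell value was -0.69 without replicate 3 of NZO/HlLtJ on 44% fat. The 29 lists with at least 7 genes tested are drawn.

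The interaction of males was then set against that of females in 1 test, males minus females. It was called for 237 genes (1.26%, with 18.2% at an unadjusted p below 0.05), and for 58 without the replicate 3 library. Of the 53 genes 9 were called, with 0 of these called without that library (adjusted p from 0.0590 to 0.472). This test holds the male interaction by which the 53 were chosen, so calls among them are not independent of that choice. Rarres2 had -0.90 (SE 0.24, adjusted p = 0.0458, and 0.103 without it), with interactions of -1.42 in males and -0.51 in females. Anxa8 had -1.91 (SE 0.48, adjusted p = 0.0352, and 0.0909 without it), since in females its interaction was -0.18. Hoxd9 and Hoxd8 had 2.02 and 1.10 (adjusted p = 0.0242 and 0.0239), with adjusted p of 0.104 and 0.0904 without it.

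The 3 genes with the smallest p for the difference between the sexes (Adgrg2, Amy1 and Gm9992) were not called in males. Adgrg2 differed by 3.82 (SE 0.68, adjusted p = 0.0108), with interactions of 1.60 in males and -2.23 in females, and by 2.62 without the replicate 3 library (adjusted p = 0.0171). Amy1, a salivary-type amylase, differed by 2.07 (SE 0.37, adjusted p = 0.0108), with 0.15 in males and -1.92 in females. In NZO/HlLtJ females Amy1 was at 97.3 to 125 CPM on 10% fat and 21.4 to 38.7 CPM on 44% fat, while in NZO/HlLtJ males it was at 48.8 to 112 CPM and 45.9 to 101 CPM. The predicted gene Gm9992 differed by 6.33 (SE 1.15, adjusted p = 0.0108) at levels of 0.0222 to 2.06 CPM in males. Adipoq differed by 1.34 (SE 0.25, adjusted p = 0.0108), with an interaction of -1.51 in females.

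Cyp2e1, a cytochrome P450 that oxidizes ethanol and ketones, differed by 3.94 (SE 0.92, adjusted p = 0.0239, and 0.0621 without the replicate 3 library). In NZO/HlLtJ males it was at 56.6, 116, 31.0 and 17.4 CPM on 10% fat and 27.7, 10.5, 9.32 and 12.8 CPM on 44% fat, and it fell by 1.87 (SE 0.47) on the log2 scale (adjusted p = 0.0385, and 0.216 without replicate 2 on 10% fat). In CAST/EiJ males it was at 1905 to 7229 CPM. The interaction was -1.40 in males (95% interval -2.75 to -0.05, adjusted p = 0.440) and -5.34 in females (adjusted p = 1.58e-06).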

How the data were processed

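Poly(A) RNA was measured by paired sequencing of KAPA mRNA HyperPrep libraries with ERCC spike-ins, not used here, per the labels' protocols. The authors deposited expected counts per gene (estimated counts, 21.5% not whole to within 1e-06, rounded here) and variance-stabilized log2 values for the same libraries, which were not used. Gene positions are the deposited ones. GRCm38 and DESeq2 appear in the submitters' processing notes with no stated role. Which aligner and counting tool were used is not given in the sources used here.

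Genes passing filterByExpr (minimum count 10) were fitted in edgeR 4.0.16 (R 4.3.3, limma 3.58.1, TMM scaling, quasi-likelihood F test) with 1 mean for each of 12 groups of 47 libraries, leaving 35 residual degrees of freedom (biological coefficient of variation 0.192). CPM uses TMM-scaled library totals (31.8 to 56.0 M counts before scaling). The code was tested on simulated data. Alternatives were DESeq2 1.42.0, other scalings and filters, ID range, the 15 libraries alone, and leaving out each library.

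Named were the 12 called protein-coding genes of highest and 12 of lowest interaction with mean log2 CPM of at least 1, called list members, a panel of 24 genes and the 3 strongest sex differences. Other genes were named after their values were seen. Members, lists and panel were chosen with earlier results of these data known. No 2 libraries of a group agreed within sampling noise (chi-square per degree of freedom 23.9 to 192). Of the 53 called genes, 1 is not reported here by name.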

Additional observations from a re-analysis of the deposited data

Results flagged for a closer look

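Among 150 groups of 4 libraries, from the genes named by rule, 15 held a library far from the others of its group, where chance gives about 1 in 20 groups. Replicate 2 of NZO/HlLtJ males on 10% fat was far above its group for 5 lipogenic genes: Fasn at 14390 CPM (others 4741 to 5108), Acaca at 1951 (591 to 764), Elovl6 at 354 (69.5 to 92.4), Slc2a5 at 7.19 (0.664 to 0.784) and Thrsp at 818 (151 to 199). That library was also high for Adgrg2 at 13.8 CPM (9.12 to 9.59) and low for Runx2 at 6.44 CPM (8.19 to 8.44). Replicate 1 of the same group was low for Hoxd9 at 1.10 CPM (1.499 to 1.58).

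In NZO/HlLtJ males on 44% fat, replicate 3 was high for Ptpn22 at 21.9 CPM (14.6 to 15.8) and Slc2a5 at 0.439 CPM (0.0807 to 0.142), and replicate 4 for Chst4 at 1.45 CPM (0.463 to 0.595). In CAST/EiJ males on 44% fat, replicate 2 was high for St8sia6 at 1.41 CPM (1.00 to 1.07) and low for Gm9992 at 0.514 CPM (0.898 to 0.969), replicate 3 was high for Wisp2 at 1.58 CPM (0.837 to 0.898) and replicate 4 for Itgax at 6.64 CPM (2.36 to 2.91). The 3 CAST/EiJ libraries on 10% fat are too few for this measure.

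The interaction differed between the sexes (edgeR, males minus females, adjusted p below 0.05) for 10 of 50 named genes. Some of the 50 were named by the male interaction and 3 by this same test, so the count is not independent of the choice. The log2 differences were 3.80 for St8sia6, 2.02 for Hoxd9, 1.40 for Umad1, -1.91 for Anxa8, -0.90 for Rarres2, 1.34 for Adipoq, 3.94 for Cyp2e1, 3.82 for Adgrg2, 2.07 for Amy1 and 6.33 for Gm9992. Without replicate 3 of CAST/EiJ males on 10% fat those of St8sia6 (0.76), Hoxd9 (1.44), Umad1 (1.51), Anxa8 (-1.73), Rarres2 (-0.84) and Cyp2e1 (3.68) were not called.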

How the results depend on the processing

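With all libraries the interaction was called for 53 genes, diet for 218 in NZO/HlLtJ and 388 in CAST/EiJ, and the sex difference for 237. DESeq2 called 149, 599, 641 and 686. Leaving out each library gave 10 to 172, 15 to 859, 112 to 650 and 58 to 885. The lowest count was without replicate 3 of CAST/EiJ males on 10% fat, except in NZO/HlLtJ (without replicate 4 on 44% fat). The highest was without replicate 2 of that CAST/EiJ group for the interaction and for CAST/EiJ, without its replicate 1 for the sex difference, and without replicate 3 on 44% fat in NZO/HlLtJ. The 77 ID range alone gave 2, 0, 8 and 0 (edgeR, with 1798 and 777 genes at unadjusted p below 0.05 for the 2 counts of 0), and the libraries outside it 1, 0, 206 and 126 (1639 for the 0). The 15 libraries alone gave 3, 0 and 21 (2288 for the 0). These fits hold fewer libraries, and the 77 range held only 1 library of each diet in CAST/EiJ males. DESeq2 was not run in them. In NZO/HlLtJ library totals gave 140, no filter on low counts 144 and the ID range as a term 99, and the cause was not tested. No gene named by rule and called for the interaction changed sign, whereas uncalled genes such as Slc2a5 did in some settings, Slco4c1 did in the 77 ID range and the B and plasma cell median did without replicate 3 of NZO/HlLtJ on 44% fat. Most interaction calls were positive with all libraries (32 against 21), but not without replicate 1 of CAST/EiJ males on 44% fat (22 against 24). In NZO/HlLtJ the share of higher calls was 67.4%, and 44.4% without replicate 4 on 10% fat. DESeq2 took the share of higher calls of the sex difference from 61.6% to 47.7%. No paired analysis was possible because the labels give no replicate numbers.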
